A study of Arabidopsis thaliana with 30 samples.

Results

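The bicarbonate response of the Arabidopsis thaliana triple line oePsbSoeβCA1βCA2 was taken from 6 of the 30 libraries of the series, which are the libraries labelled with all 3 overexpressed genes. Of these, 3 came from rosettes that were given bicarbonate and 3 from rosettes that were given water. The series holds the same pair of treatments in Col-0, in npq4-1, which lacks PsbS, in oePsbS and in the double line oePsbSoeβCA1. Plants of every group were 4 weeks old, and from the age of 2 weeks they were watered every 2 days with 10 ml. This was either plain water or sodium bicarbonate at 3 mM, buffered to neutral pH with potassium hydroxide and called bicarbonate below. The treatments thus also differ in sodium and potassium, whose effects cannot be told apart from that of bicarbonate.

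The triple line was made by introducing βCA1 and βCA2 into oePsbS, on a construct driven by the ROLD and 35S promoters, the second of which is strong in most cells of the plant. Both treatment groups therefore carry every transgene, and the comparison is between treatments within 1 genotype. Independent lines with high expression were selected, and the sources do not say from which line or from how many plants each library was made. According to the methods there were 3 biological samples with 3 technical repeats, so the p-values measure only the spread between these samples. The study asked how bicarbonate, the substrate and product of carbonic anhydrases, acts on plants that overexpress these enzymes in the oePsbS background. The paper reports that PsbS protein in the double and triple lines was well below that of oePsbS and near that of Col-0.

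Carbonic anhydrases interconvert carbon dioxide and bicarbonate, and the β class is abundant in leaf chloroplasts and the cytosol. PsbS is a thylakoid protein that senses the acid lumen and switches on the dissipation of excess light as heat. In leaves, many early stress responses start with calcium entry and mitogen-activated protein kinases. These act on transcription factors of the ERF, WRKY and C2H2 zinc finger families within minutes. Many rapidly induced members of these families, though not the families as a whole, are low at rest and give short-lived messenger RNAs. Such members can respond to wounding, touch, cold and microbial patterns alike.

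PsbS RNA was high in all 6 libraries, at 4997 to 5592 CPM (read counts scaled by the effective library size) with water and at 4307 to 4817 CPM with bicarbonate, against 1513 to 1740 CPM in Col-0 with water. Protein was not measured in these libraries. BCA1, which encodes βCA1, stood at 3611 to 4071 CPM with water in the triple line, above the 2900 to 3059 CPM of Col-0 with water. With bicarbonate it stood at 3342 to 3895 CPM, which overlaps the 2941 to 4288 CPM of Col-0 with bicarbonate. BCA2, which encodes βCA2, stood at 1604 to 1883 CPM with water and 1813 to 1919 CPM with bicarbonate, against 1184 to 1265 CPM in Col-0 with water and 1331 to 1834 CPM with bicarbonate. Its transcript model AT5G14740.1 was estimated at 493 to 545 TPM (a level scaled for transcript length and library size) in the 3 water libraries and at 452 to 549 TPM in the 3 bicarbonate libraries. That model is listed at 0 in every library of the other 4 genotypes, so it marks the 6 triple libraries and no others. None of the 3 loci was called between treatments by edgeR's quasi-likelihood test. The log2 fold changes were −0.22 for PsbS (standard error 0.07, Benjamini-Hochberg adjusted p = 0.209), −0.05 for BCA1 (adjusted p = 0.889) and 0.11 for BCA2 (adjusted p = 0.675).

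The 6 libraries held 15605433 to 17995764 reads assigned to genes, within the 15346368 to 18326430 of the whole series. Mesophyll markers such as RBCS1A and LHCB3 summed to 43807 to 45511 CPM with water and to 42469 to 45591 CPM with bicarbonate, and none of the 5 was called. Of the other lists of cell type markers, those for guard cells, phloem, epidermis and meristem overlapped between treatments. The 8 floral markers summed to 5.24 to 6.17 CPM with water and 7.13 to 16.7 CPM with bicarbonate and did not overlap. AP1 and SEP3 gave most of that difference, and none of the 5 tested was called. The 5 root markers summed to 38.7 to 43.6 CPM with water and 37.0 to 37.6 CPM with bicarbonate, of which SCR gave most and EXPA7 was at 0. Seed markers were at most 0.180 CPM. The part of these tissues in the results was not tested.

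Bicarbonate raised many more genes than it lowered in the triple line. Of 18149 genes tested with edgeR, 216 were called higher (1.19%) and 21 were called lower (0.116%). A gene is called throughout where its Benjamini-Hochberg adjusted p is below 0.05 and its log2 fold change is past 1 in either direction. Over all genes tested, the 3 bicarbonate libraries lay above the 3 water libraries for 8.76% and below them for 8.67%, so separation of the libraries by itself was as common in both directions. All 237 called genes (1.31%) were separated in this way. By the adjusted p alone, 364 genes (2.01%) would pass. In bulk rosettes a change in the number of cells of a type and a change in RNA per cell cannot be told apart.

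The raised genes started low. Their median level with water was 4.41 CPM, against 16.3 CPM for all genes tested, and 32 of the 216 were under 1 CPM. Their median log2 fold change was 1.94, with 102 genes above 2, 48 above 3 and 19 above 4. The 21 lowered genes had a median level with water of 16.9 CPM and a median log2 fold change of −1.28, and only 2 of them fell below −2. A gene can pass the low-count filter through its bicarbonate libraries alone, and the fold change is taken relative to water. Both favour raised genes that are low with water, so the low start is a description.

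**Figure D1:**
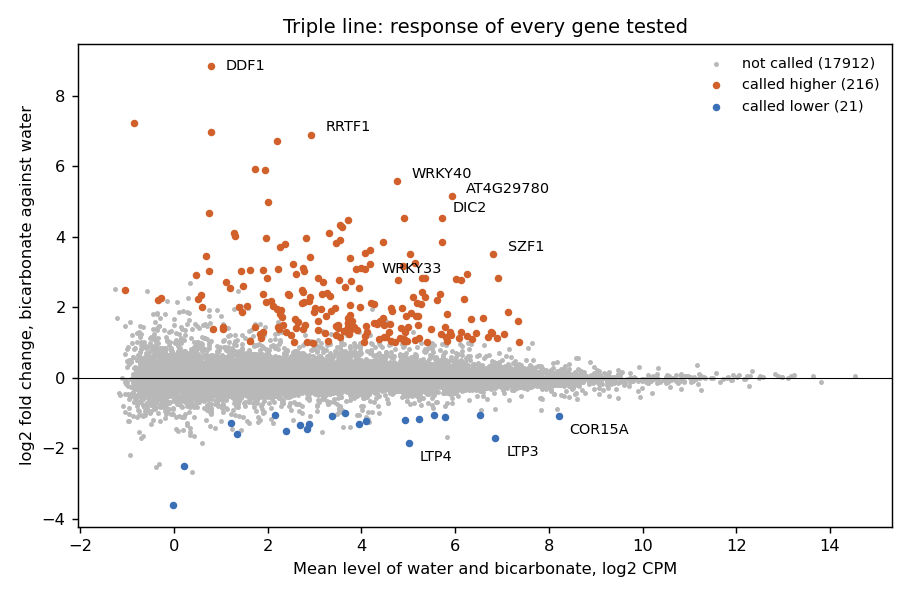
Each point is 1 of 18149 genes in the triple line. The horizontal axis is the log2 of the mean CPM of both treatments and the vertical axis the log2 fold change of bicarbonate against water. The 216 genes called higher (orange) lie mostly at low and middle levels, with estimates of up to 8.85. For the 2 of them with no read with water, the estimate rests on no measured water level. The 21 called lower (blue) include the abundant COR15A and LTP3.

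ERF proteins bind DNA through an AP2/ERF domain and include fast activators and repressors of defence and abiotic stress genes. The gene lists here and below were written with earlier results of these data known. Their shares are therefore a description and not a test. Of the 21 rapid ERF genes tested, 13 rose (61.9%, against 1.19% of all genes) and none fell, and their median log2 fold change was 1.98 against −0.00 for all genes. Another 3 tested loci of this list, matched only by their identifiers, also rose: AT1G77640 by 4.69, AT1G33760 by 4.99 and AT1G19210, which had no read with water and was at least 18.6-fold higher. With them 16 of 24 rose, with a median of 2.92. RRTF1, which is named for its response to the redox state of the cell, stood at 0.194, 0 and 0.178 CPM in water replicates 1 to 3 and at 6.91, 17.3 and 21.3 CPM in bicarbonate replicates 1 to 3. The water libraries held 6 reads of it and the bicarbonate libraries 751, so it went from near absence to a moderate level in every bicarbonate library. Its log2 fold change was 6.90 (standard error 0.64, edgeR adjusted p = 0.00198).

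ERF6 and ERF104 encode activators that act downstream of mitogen-activated protein kinases. ERF6 stood at 1.03, 1.26 and 1.19 CPM with water and at 8.96, 25.1 and 34.2 CPM with bicarbonate. ERF104 stood at 3.49, 2.40 and 2.38 CPM with water and at 14.7, 40.7 and 46.0 CPM with bicarbonate. For both genes the lowest bicarbonate library was above every water library, with log2 fold changes of 4.29 and 3.63 (standard errors 0.49 and 0.41, both at adjusted p = 0.00306 from edgeR). ERF11, a repressor, stood at 0.97, 0.80 and 1.48 CPM with water and at 9.26, 18.4 and 28.9 CPM with bicarbonate (log2 fold change 4.12, standard error 0.44, adjusted p = 0.00247). ERF105, which is known to respond to cold, stood at 1.49, 1.14 and 1.72 CPM with water and 7.57, 22.6 and 31.2 CPM with bicarbonate. Its log2 fold change was 3.82 (standard error 0.49, adjusted p = 0.00478), and as for the other ERF genes the treatments did not overlap. DDF1, a relative of the CBF factors, had no read in the water libraries and stood at 1.2, 5.48 and 3.68 CPM with bicarbonate. That is at least 57.3-fold higher, taking 3 reads over the 3 water libraries as the floor. The other members that rose were ERF1A, ERF2, ERF4, ERF5, ERF13, DREB26 and ORA47, with log2 fold changes from 1.22 (ERF2) to 4.33 (ORA47).

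Of 26 WRKY genes tested, 7 rose (26.9%) and none fell, with a median log2 fold change of 0.51. WRKY proteins bind the W-box of defence gene promoters. WRKY40, a repressor of defence genes that acts with its close relatives, stood at 1.88, 0.286 and 1.25 CPM with water. With bicarbonate it stood at 28.1, 54.3 and 76.1 CPM, so that even the lowest of these libraries was far above the highest water library. The log2 fold change was 5.57 (standard error 0.48, adjusted p = 0.00186 from edgeR). WRKY33, an activator of camalexin synthesis, was already present with water at 21.6, 14.7 and 17.4 CPM and rose to 77.1, 139 and 149 CPM (log2 fold change 2.77, standard error 0.24, adjusted p = 0.00186). WRKY46 rose by 1.86 and WRKY22, which acts in signalling from bacterial flagellin, by 2.19 on the log2 scale. WRKY15, WRKY48 and WRKY53 rose by 1.15, 1.03 and 1.33. The count of raised WRKY genes was 4 without water replicate 2 and 4 without bicarbonate replicate 2.

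The C2H2 zinc finger genes of the ZAT and AZF type encode repressors with an EAR motif that accumulate in cold, salt and oxidative stress. Of the 7 tested, 5 rose (71.4%) and none fell, and the median was 2.61. With 1 further locus matched only by its identifier the count was 5 of 8 and the median 2.25. ZAT10 stood at 2.52, 2.00 and 2.91 CPM with water and at 24.8, 59.7 and 87.4 CPM with bicarbonate (log2 fold change 4.54, standard error 0.45, adjusted p = 0.00205). ZAT12 stood at 1.10, 0.571 and 0.891 CPM with water and at 5.65, 14 and 20.2 CPM with bicarbonate (log2 fold change 3.97, standard error 0.48, adjusted p = 0.00367). In both, replicate 1 was the lowest and replicate 3 the highest of the bicarbonate libraries. ZAT6 stood at 4.08, 1.89 and 2.97 CPM with water and at 10.3, 20.9 and 29.3 CPM with bicarbonate. ZAT7 stood at 0.97, 0.685 and 0.713 CPM with water and at 4.03, 5.18 and 5.18 CPM with bicarbonate. Their log2 fold changes were 2.78 (standard error 0.38) and 2.61 (standard error 0.25), and AZF2 rose by 1.89.

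Promoters are shown for the 6 raised genes with the smallest adjusted p among chosen transcription factor families of the lists. These were the ERF, WRKY and C2H2 lists and members of the CBF, MYB, NAC, heat shock factor and similar families. CCCH zinc finger genes such as SZF1 were not part of that choice. Each line gives the 250 bases upstream of the annotated gene start in the genome TAIR10.1, 5′ to 3′ on the strand of the gene, as RefSeq annotates it. Capitals mark matches on either strand to the W-box (TTGACC or TTGACT), the GCC box of ERF proteins (GCCGCC), the core of the CBF site (CCGAC), the G-box (CACGTG), the rapid stress element core CGCGTT and the evening element (AAAATATCT). A match is a description of the letters, and binding was not measured. The windows are chr2:16107985-16108234 (WRKY33), chr1:30383311-30383560 (WRKY40) and chr4:16451626-16451875 (RRTF1) on the plus strand. On the minus strand they are chr3:16926884-16927133 (ZAT7), chr1:9649324-9649573 (ZAT10) and chr4:13016236-13016485 (CBF2).
WRKY33: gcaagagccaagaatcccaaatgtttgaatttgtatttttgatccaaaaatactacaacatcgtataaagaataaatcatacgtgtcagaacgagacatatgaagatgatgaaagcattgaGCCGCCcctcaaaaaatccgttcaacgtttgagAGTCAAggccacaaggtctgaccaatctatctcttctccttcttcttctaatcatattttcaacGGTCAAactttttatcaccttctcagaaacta
WRKY40: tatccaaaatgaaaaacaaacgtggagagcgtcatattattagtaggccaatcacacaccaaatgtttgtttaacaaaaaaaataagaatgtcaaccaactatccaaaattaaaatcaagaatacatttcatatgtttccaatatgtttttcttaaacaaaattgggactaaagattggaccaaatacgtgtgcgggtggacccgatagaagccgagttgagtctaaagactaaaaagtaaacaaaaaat
RRTF1: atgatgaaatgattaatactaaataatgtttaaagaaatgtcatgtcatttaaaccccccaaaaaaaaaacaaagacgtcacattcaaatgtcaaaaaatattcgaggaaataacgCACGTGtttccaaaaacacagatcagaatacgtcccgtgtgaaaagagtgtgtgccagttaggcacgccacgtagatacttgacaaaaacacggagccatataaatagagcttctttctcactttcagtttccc
ZAT7: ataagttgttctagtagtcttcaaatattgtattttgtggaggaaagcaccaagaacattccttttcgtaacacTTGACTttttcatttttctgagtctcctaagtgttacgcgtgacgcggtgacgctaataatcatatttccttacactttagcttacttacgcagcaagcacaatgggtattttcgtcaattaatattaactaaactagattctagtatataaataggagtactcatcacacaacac
ZAT10: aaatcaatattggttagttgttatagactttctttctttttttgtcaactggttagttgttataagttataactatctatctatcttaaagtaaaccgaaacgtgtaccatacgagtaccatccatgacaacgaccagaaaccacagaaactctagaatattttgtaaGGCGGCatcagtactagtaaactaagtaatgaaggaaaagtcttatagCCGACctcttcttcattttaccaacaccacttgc
CBF2: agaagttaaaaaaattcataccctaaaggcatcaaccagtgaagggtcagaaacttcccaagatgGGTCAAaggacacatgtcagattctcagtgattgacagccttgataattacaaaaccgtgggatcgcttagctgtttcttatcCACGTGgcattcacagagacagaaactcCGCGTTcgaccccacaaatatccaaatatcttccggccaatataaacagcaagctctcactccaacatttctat

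WRKY33 holds 2 W-boxes, both on the reverse strand, with their first bases at −96 and −32 from the gene start, and a GCC box at −129. CBF2 holds a reverse W-box at −185, a G-box at −102 and a CGCGTT at −74. ZAT10 holds a reverse GCC box at −82 and a CCGAC at −34, ZAT7 a W-box at −176 and RRTF1 a G-box at −134. The window of WRKY40 holds none of the 6 motifs.

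Over all 216 raised genes, 11.1% of windows held CGCGTT, against 2.76% of the 18052 tested genes with a window and 2.59% of all 27443 genes. The W-box was found in 45.4% of raised genes and 27.8% of tested genes, and the GCC box in 4.63% and 1.91%. CCGAC was found in 15.7% against 13.2%, CACGTG in 10.6% against 7.50% and AAAATATCT in 3.24% against 2.54%. Among the 21 lowered genes no window held CGCGTT or the GCC box, and 7 held a W-box (33.3%). CACGTG was in 6, CCGAC in 6 (28.6% each) and AAAATATCT in 1 (4.76%). Shares over so few genes are imprecise. The raised genes were also short in structure. Of the 216, 103 (47.7%) had a single exon in every annotated transcript, against 12.6% of tested genes and 3 of the 21 lowered genes, and their median number of exons was 2 against 5. Among the raised genes, 9 pairs follow each other in the order of tested genes on the chromosome, such as ERF6 with ERF1A, ERF2 with ERF5 and AP2C1 with MAPKKK14. Genes that were not tested may lie between them, and shared flanking sequence was not examined.

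Of 17 genes of touch and calcium signalling tested, 8 rose (47.1%), 9 were not called and none fell, with a median of 0.73. With 4 further loci of this list, which were matched only by their identifiers, the count was 9 of 21, and the added gene was AT3G01830 (3.46). CML38, a calmodulin-like calcium sensor, stood at 1.49, 1.2 and 0.713 CPM with water and at 15.2, 25.9 and 33.9 CPM with bicarbonate (log2 fold change 4.47, standard error 0.35, adjusted p = 0.00186 from edgeR). TCH4, a xyloglucan endotransglucosylase/hydrolase known for its induction by touch, stood at 18.5, 16.6 and 17.7 CPM with water and at 70.3, 149 and 189 CPM with bicarbonate. TCH3, an abundant calmodulin-like protein, rose from 72.6, 46.8 and 61.3 CPM to 133, 279 and 247 CPM. The water libraries were tightly grouped for TCH4 and the bicarbonate libraries spread widely, yet for neither gene did the treatments overlap. The log2 fold changes were 2.96 for TCH4 (standard error 0.30, adjusted p = 0.00212) and 1.88 for TCH3 (standard error 0.25, adjusted p = 0.00537). CML23 rose by 2.37 and CML37 by 4.11, and TCH2 and the calcium-dependent kinases CPK28 and CPK32 rose by 1.43, 1.38 and 1.29. The count was 5 when water replicate 2, water replicate 3 or bicarbonate replicate 2 was left out. TCH4 was also the only member of 29 xyloglucan enzyme and expansin genes to be called (3.45%, against 1.19% of all genes), and the count was 2 without water replicate 1.

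Of 34 genes of pattern-triggered immunity, 13 rose (38.2%) and none fell, and all 34 had a positive log2 fold change, with a median of 1.00. AP2C1, a phosphatase that inactivates mitogen-activated protein kinases, stood at 5.24, 5.88 and 4.87 CPM with water and at 34.2, 62.4 and 86.1 CPM with bicarbonate (log2 fold change 3.52, standard error 0.31, adjusted p = 0.00186). SYP122, a syntaxin of the plasma membrane, rose from 21.7, 14.5 and 16.5 CPM to 51.3, 90.2 and 102 CPM (log2 fold change 2.22, standard error 0.24, adjusted p = 0.00280). Both genes were separated between treatments in every library. The ubiquitin ligase gene PUB23, whose product restrains immune signalling, rose by 2.54 and ATL31, another ubiquitin ligase gene, by 2.33. The kinase genes MPK11 and MKK9 and the chitin receptor gene LYK5 rose by 1.82, 1.48 and 1.49. MYB51 and CYP81F2, which act in indole glucosinolate synthesis, rose by 1.62 and 1.23. The count of 13 was 8 without water replicate 2, 8 without water replicate 3 and 6 without bicarbonate replicate 2.

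Among other stress regulators and factors of mRNA decay, 9 of 17 rose (52.9%) and none fell, with a median of 1.30. CAF1a and CAF1b encode deadenylases, which shorten the poly(A) tail of messenger RNAs. CAF1a stood at 7.96, 4.97 and 7.84 CPM with water and at 44.9, 107 and 143 CPM with bicarbonate, and CAF1b rose by 3.08 on the log2 scale. SZF1, a CCCH zinc finger protein that acts in the salt response, stood at 23.3, 13.7 and 18.17 CPM with water and at 110, 227 and 283 CPM with bicarbonate. No bicarbonate library of these genes came near a water library, and the log2 fold changes of CAF1a and SZF1 were 3.84 and 3.50 (standard errors 0.39 and 0.33, adjusted p = 0.00212 and 0.00198). CZF1, a paralogue of SZF1, rose by 2.44. BT2, a scaffold protein with BTB and TAZ domains, stood at 2.78, 2.91 and 3.03 CPM with water and at 6.31, 10.7 and 10.4 CPM with bicarbonate (log2 fold change 1.66, standard error 0.22, adjusted p = 0.00502). NAC062, MYB77, BT5 and the heat shock factor gene HSFA4A rose by 1.75, 1.97, 1.54 and 1.30.

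Several of the 15 raised genes with the smallest adjusted p lie outside these families. AT4G29780, annotated as a nuclease, stood at 3.75, 3.14 and 3.21 CPM with water and at 48.4, 134 and 173 CPM with bicarbonate. DIC2, a dicarboxylate carrier of the mitochondrial inner membrane, stood at 4.01, 4.46 and 4.51 CPM with water and at 45.6, 106 and 150 CPM with bicarbonate. Both were stable among the water libraries and rose to among the higher levels of the called genes, by 5.15 and 4.54 on the log2 scale (standard errors 0.45 and 0.40, both at adjusted p = 0.00186 from edgeR). UCP5, a related mitochondrial carrier, rose by 2.38. HSPRO2, the orthologue of a sugar beet nematode resistance gene, stood at 37.7, 21.8 and 30.1 CPM with water and at 128, 239 and 270 CPM with bicarbonate. WES1, a GH3 enzyme that conjugates auxin to amino acids, rose by only 1.25 but with little spread, from 8.34, 7.54 and 7.90 CPM with water to 20.4 and 18.1 CPM in bicarbonate replicates 1 and 2 and slightly less in replicate 3 (standard error 0.11, adjusted p = 0.00189). In contrast to most raised genes, WES1 was highest in bicarbonate replicate 1. AT3G02840, AT5G17350 and AT1G15010 rose by 5.89, 6.72 and 3.05 from under 1 CPM in each water library.

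**Figure D2:**
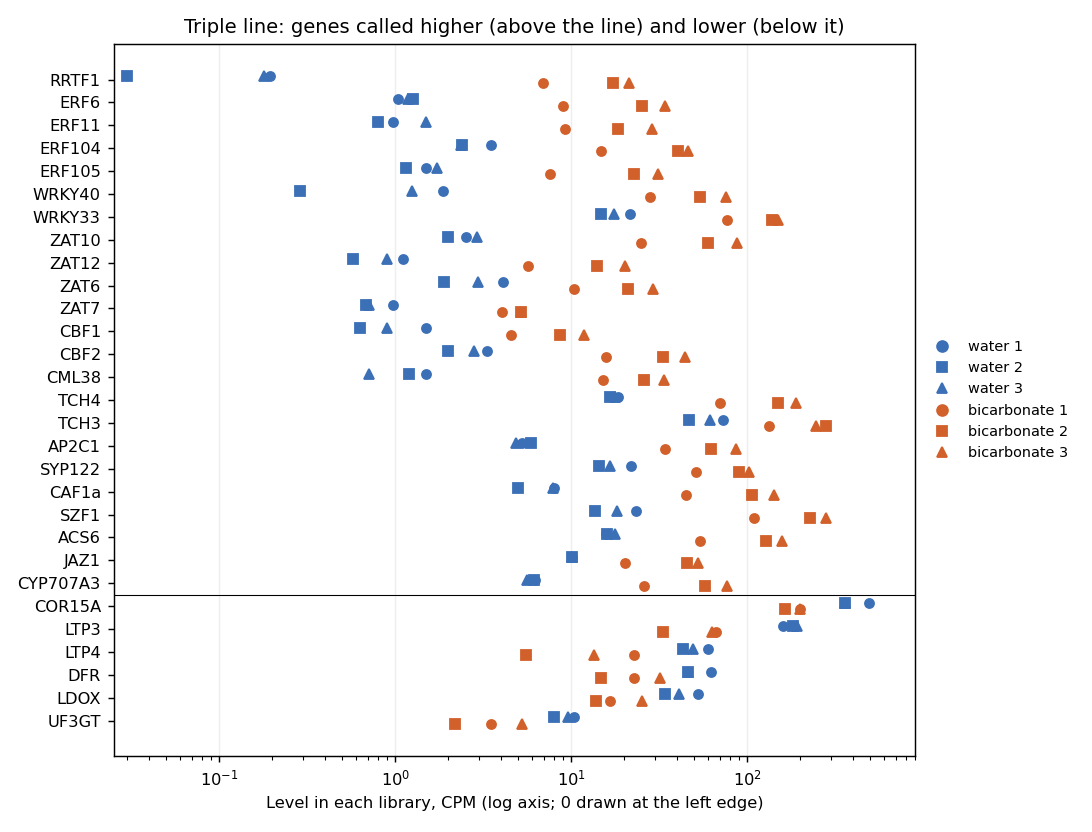
Levels in CPM (log axis) of 29 named genes in each of the 3 water (blue) and 3 bicarbonate (orange) libraries of the triple line, with circles, squares and triangles for replicates 1, 2 and 3. For the 23 raised genes above the line every orange point lies right of every blue point, with the circle usually leftmost, and for the 6 lowered genes below it every orange point lies left.

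Hormone genes moved in part. Of 17 ethylene genes, 3 rose and none fell, all 3 for 1-aminocyclopropane-1-carboxylate synthase, the enzyme that makes the precursor of ethylene. ACS6 stood at 15.7, 16.1 and 17.64 CPM with water and at 54.0, 128 and 158 CPM with bicarbonate (log2 fold change 2.79, standard error 0.33, adjusted p = 0.00310). ACS11 and ACS8 rose by 2.05 and 1.30 from levels under 3 CPM. The count was 1 without water replicate 2 and 1 without bicarbonate replicate 3.

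Of 32 jasmonate genes, 4 rose (12.5%) and 1 fell (3.12%), with a median of 0.01. The raised members were CYP94B3, which inactivates the jasmonate hormone (3.98), the lipoxygenase gene LOX4 (2.09), the repressor gene JAZ1 (1.97) and the master regulator gene MYC2 (1.10). JAZ1 stood at 10.2, 10.1 and 10.0 CPM with water and at 20.2, 45.3 and 52.4 CPM with bicarbonate. VSP2, a storage protein gene that jasmonate normally induces, fell from 79.2, 47.9 and 63.8 CPM to 31.1, 20.5 and 39.3 CPM. Its fall was near the threshold (log2 fold change −1.06, standard error 0.23, adjusted p = 0.0497) and was not called in 4 of the 6 fits that left out a library. These were the fits without water replicate 1, water replicate 3, bicarbonate replicate 1 or bicarbonate replicate 2, and in the last of them 2 jasmonate genes rose.

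Of 18 salicylate genes, 2 rose (11.1%, against 1.19% of all genes): the receptor gene NPR3 by 1.10 and CBP60G, an activator of salicylate synthesis, by 1.04. Neither was called without bicarbonate replicate 2, and the count was 1 without water replicate 2 and 1 without water replicate 3. Of 19 abscisic acid genes, only CYP707A3 was called (5.26%), whose product breaks down abscisic acid. It stood at 6.21, 6.17 and 5.58 CPM with water and at 25.8, 57.7 and 76.6 CPM with bicarbonate, a difference far larger than the spread among the water libraries (log2 fold change 3.16, standard error 0.35, adjusted p = 0.00281). Of 12 heat shock genes, only HSFA4A and HSFB2A rose (16.7%), and both encode transcription factors, not chaperones. The heat shock count was 1 without water replicate 2 or 3 or bicarbonate replicate 2 or 3. The abscisic acid count was 2 higher and 1 lower without bicarbonate replicate 1. Of 17 core hypoxia genes only SRO5 rose (5.88%, log2 fold change 3.04). AT4G27450 also rose (1.24), a locus of this list that was left out of the 17 because its symbol did not match. With the loci matched only by identifier, 2 of 19 rose. The fermentation genes ADH1 and PDC1 had log2 fold changes of −0.48 and −0.27 and were not called.

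Of 18 genes of sugar starvation and shade growth, 4 rose (22.2%) and none fell, with a median of 0.43. SEN1, a marker of darkness and senescence, stood at 41.4, 19.9 and 16.9 CPM with water and at 150, 116 and 95.9 CPM with bicarbonate (log2 fold change 2.22, standard error 0.30, adjusted p = 0.00537). ASN1, a dark-induced asparagine synthetase gene, stood at 70.8, 33.6 and 36.3 CPM with water and at 121, 115 and 84.3 CPM with bicarbonate (log2 fold change 1.2, standard error 0.26, adjusted p = 0.0468). Both were highest in bicarbonate replicate 1, unlike the ERF and ZAT genes. ASN1 lost its call in 7 of 15 alternative fits. PHI-1, which responds to phosphate, and HFR1, a shade regulator, rose by 2.57 and 1.4.

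CBF proteins switch on cold-regulated genes such as COR15A in the cold. Of 20 CBF regulators and cold effectors tested, 2 rose (10%, against 1.19% of all genes) and 3 fell (15%, against 0.116%). The other 15 were not called, and the median was −0.51. CBF2 stood at 3.30, 2.00 and 2.79 CPM with water and at 15.8, 33.3 and 44.4 CPM with bicarbonate (log2 fold change 3.55, standard error 0.37, adjusted p = 0.00226 from edgeR). CBF1 stood at 1.49, 0.628 and 0.891 CPM with water and at 4.57, 8.66 and 11.9 CPM with bicarbonate (log2 fold change 3.08, standard error 0.40, adjusted p = 0.00493). CBF3, their neighbour in the same gene cluster, overlapped between treatments at 7.31, 4.34 and 4.63 CPM with water and 4.39, 6.18 and 9.05 CPM with bicarbonate (log2 fold change 0.28, standard error 0.28, adjusted p = 0.786). The CBF genes are close in sequence, so the split of shared reads among them is uncertain.

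COR15A, which protects chloroplasts during freezing, stood at 494, 358 and 358 CPM with water and at 199, 165 and 200 CPM with bicarbonate. The treatments were well apart, and the gene fell by 1.09 on the log2 scale (standard error 0.14, adjusted p = 0.00391 from edgeR). The lipid transfer protein gene LTP3 stood at 159, 181 and 193 CPM with water and at 66.7, 33.3 and 63.2 CPM with bicarbonate. Its neighbour LTP4 stood at 60.2, 43.4 and 48.9 CPM with water and at 22.8, 5.54 and 13.5 CPM with bicarbonate. The log2 fold changes of LTP3 and LTP4 were −1.70 and −1.85 (standard errors 0.22 and 0.36, adjusted p = 0.00449 and 0.0289), and reads shared between these close copies may be split wrongly. RD29A, COR15B, KIN1 and KIN2 had log2 fold changes of −0.91, −0.62, −0.92 and −0.61 with adjusted p between 0.0182 and 0.0433, under the fold needed for a call. LTP4 lost its call in 6 of 15 alternative fits. ERD10 and COR47 stood at −0.09 and 0.06. The count of lowered members was 1 without water replicate 1 and 6 without bicarbonate replicate 1. Lowered members of this list were not particular to the triple line. They numbered 10 of 20 in oePsbS (50%, against 1.12% of all genes, median −1.11) and 8 of 19 in Col-0 (42.1%, against 0.313%, median −0.76). In npq4-1 they numbered 4 of 21 (19%, against 0.219%, median −0.92). In the double line 1 of 20 was lower (5%, against 0.0604%) and 1 higher (5%, against 0.714%), with a median of −0.26.

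**Figure D3:**
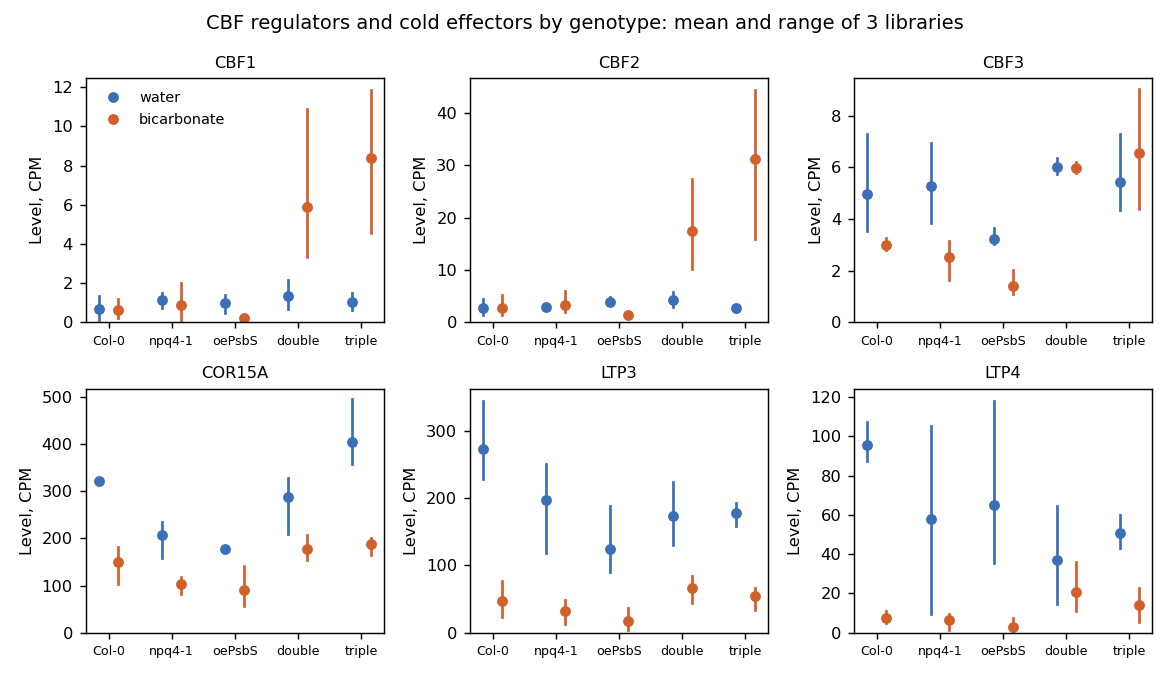
Mean (point) and range (bar) of 3 libraries in CPM for CBF1, CBF2, CBF3, COR15A, LTP3 and LTP4 in the 5 genotypes, with water in blue and bicarbonate in orange. CBF1 and CBF2 stand above their water range with bicarbonate in the double and triple lines, the library labelled double bicarbonate replicate 3 included, while COR15A and LTP3 have lower means with bicarbonate in all 5 genotypes.

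Of 15 phenylpropanoid and anthocyanin genes, 2 fell (13.3%, against 0.116% of all genes) and none rose, with a median of −0.30. DFR, dihydroflavonol reductase, stood at 62.5, 46.3 and 46.1 CPM with water and at 22.7, 14.7 and 31.8 CPM with bicarbonate (log2 fold change −1.15, standard error 0.23, adjusted p = 0.0357). LDOX, the dioxygenase that follows it in the pathway, stood at 52.9, 34.2 and 41 CPM with water and at 16.7, 13.8 and 25.2 CPM with bicarbonate (log2 fold change −1.19, standard error 0.22, adjusted p = 0.0210). UF3GT, a flavonoid glucosyltransferase gene outside the list, fell by 1.35 from 8.00 to 10.4 CPM with water to 2.18 to 5.24 CPM with bicarbonate. DFR, LDOX and UF3GT lost their call in 7, 5 and 6 of 15 alternative fits. In these 3 genes bicarbonate replicate 2 was the lowest and replicate 3 the highest. The early genes of the pathway were not called, with log2 fold changes of 0.02 for PAL1, 0.01 for C4H and −0.55 for TT4. The count for the list was 1 without water replicate 2 and 0 in each of the 4 fits without water replicate 1, water replicate 3, bicarbonate replicate 1 or bicarbonate replicate 2. With every library it was 3 when the p was left unadjusted and 2 by DESeq2.

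The remaining lowered genes had mixed roles. AT5G52390, annotated as a PAR1 protein, fell from 10.7, 9.48 and 11.3 CPM to 4.81, 3.47 and 4.37 CPM (log2 fold change −1.30, standard error 0.16, adjusted p = 0.00353). AT3G27400, a pectin lyase-like protein, AT4G34950, a transporter of the major facilitator superfamily, and AT4G30650, annotated as responsive to low temperature and salt, fell by 1.08, 1.04 and 1.12. PELPK1, a cell wall glycoprotein, ChlAKR, a chloroplast aldo-keto reductase, and FAR5, which makes fatty alcohols of suberin, fell by 1.21, 1.28 and 1.60, and lost their call in 6, 6 and 4 of 15 alternative fits. AT2G41800, annotated as an imidazolonepropionase, fell by 1.51. The steepest falls were in genes of few reads: AT3G02480, a late embryogenesis abundant protein, at −3.60 and AT4G08570, of a family of heavy metal binding proteins, at −2.49, each under 4 CPM in every water library. AT4G08570 lost its call in 6 of the 15.

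The machinery of photosynthesis and carbonic anhydrases did not pass the test. Of 26 light-harvesting and Rubisco genes, 13 carbonic anhydrase genes, 13 genes of photoprotection and cyclic electron flow, 15 clock genes, 12 iron genes and 7 reference genes, edgeR called 0. The first 5 of these lists also held 0 genes when the p was left unadjusted and the fold was kept, and 0 by DESeq2. The iron list held 1 raised gene without bicarbonate replicate 2. The median log2 fold changes were 0.04, −0.03, −0.09, 0.09, 0.36 and 0.01. In these lists small changes could pass the p alone: ELIP1, an early light-induced protein, stood at 13.3, 15.2 and 15.7 CPM with water and at 7.81, 7.18 and 9.36 CPM with bicarbonate (log2 fold change −0.85, standard error 0.13, adjusted p = 0.00989). Of 13 genes of reactive oxygen species edgeR called 0 and DESeq2 called 0, and 1 was lower at an unadjusted p under 0.05 with the fold. The plot of the lists shows that their medians ran from −0.51 to 2.61.

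**Figure D4:**
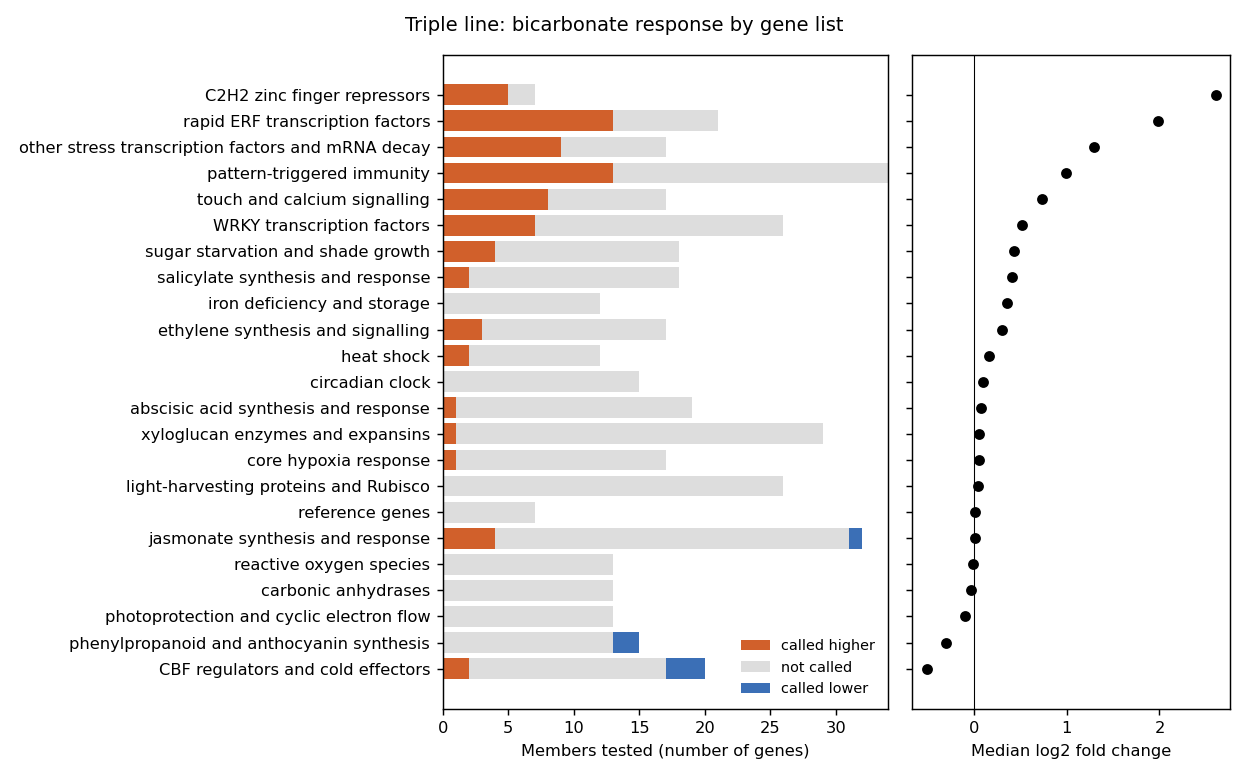
Left, number of members tested in each of 23 gene lists, split into called higher (orange), not called (grey) and called lower (blue) in the triple line. Right, the median log2 fold change of the members tested. The C2H2 and ERF lists lie farthest to the right at 2.61 and 1.98, and the CBF and cold list lies farthest to the left at −0.51.

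The 3 bicarbonate libraries responded to unequal degrees. On the log2 scale of CPM plus 0.5, the mean shift of the 216 raised genes from the water mean was 1.29 in replicate 1, 2.09 in replicate 2 and 2.29 in replicate 3. Replicate 1 was the lowest of the 3 in 200 of the 216 genes, and replicate 3 was the highest in 164. The 216 genes were called from these same libraries, so this order is a description. Its share over all genes tested was not counted. The median shift of all genes tested was −0.01 to −0.00 in the bicarbonate libraries. The order was not the same for the 21 lowered genes, whose mean shifts were −1.14, −1.60 and −1.07, with replicate 2 the lowest in 17 of them. When bicarbonate replicate 1 was left out the raised genes numbered 274, of which 209 were among the 216. When replicate 2 was left out they numbered 119, of which 118 were among the 216. Without water replicate 2 there were 137, and without water replicate 1, water replicate 3 or bicarbonate replicate 2 there were only 6, 7 and 6 lowered genes.

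The same genes had different levels in the other genotypes, and these groups share no library with the triple line. The median CPM over the 216 raised genes was 4.11 to 5.14 in the triple water libraries and 5.05 to 6.54 in the water libraries of the other 4 genotypes. In the triple line it was 11.8, 20.8 and 26.8 with bicarbonate. In the double line it was 10.1, 13.0 and 22.6 with bicarbonate, so the ranges of the double and triple lines overlapped. The 22.6 is that of replicate 3, a library labelled as the double line whose BCA1 stood at 2409 CPM, against 10940 to 16804 CPM in the other 5 double libraries. Without it the double line stood at 10.1 and 13.0, of which 10.1 was below every triple bicarbonate library and 13.0 lay between those of 11.8 and 20.8. In oePsbS with bicarbonate it was 4.14 to 5.14, in Col-0 4.06 to 7.20 and in npq4-1 4.86 to 9.23, where replicate 1 was highest in each. The mean level was highest of all 10 groups in the triple line with bicarbonate for 175 of the 216 genes, and in the double line with bicarbonate for 23. Without that double library these counts were 192 and 8. Since the genes were chosen by their rise in the triple line, this count is a description.

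**Figure D5:**
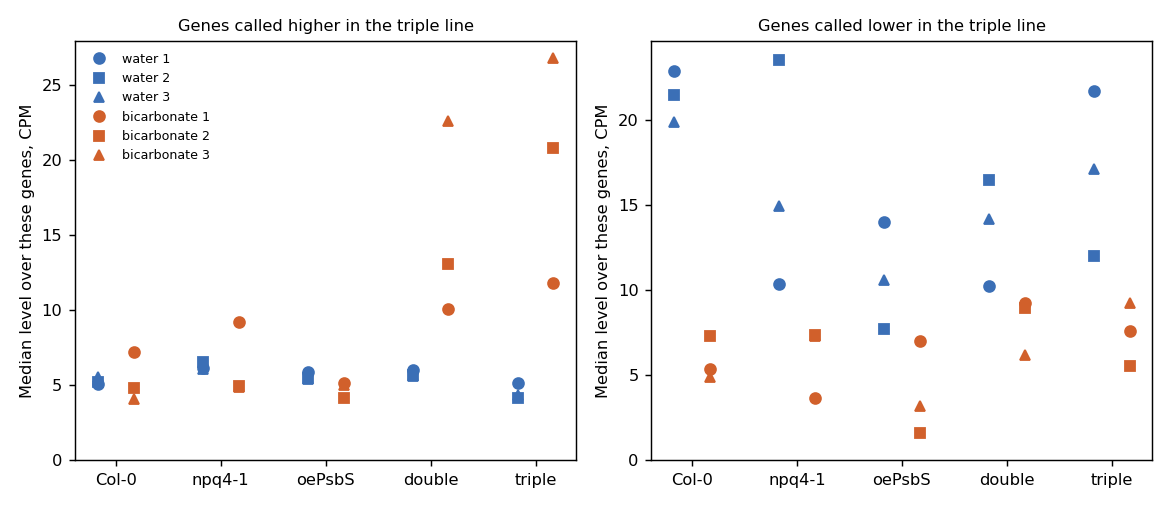
Median CPM over the 216 genes called higher (left) and over the 21 called lower (right) in the triple line, in each of the 30 libraries, with water in blue, bicarbonate in orange and symbols for replicates 1 to 3. On the left the triple and double bicarbonate libraries lie above their water libraries at 10.1 to 26.8, where the double value of 22.6 is the library with low BCA1. On the right the bicarbonate libraries lie below the water libraries in each of the 5 genotypes.

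In its own 6 libraries the double line had 130 genes higher (0.714%) and 11 lower (0.0604%), together 0.775% of those tested. Of these 130, 82 were among the 216 of the triple line, which is 63.1% of the first list and 38.0% of the second. The 211 raised genes tested in the double line had a median log2 fold change there of 1.22, against 1.89 for the same genes in the triple line. They were chosen by their rise in the triple line, and that choice favours the larger value there. Without the library labelled double bicarbonate replicate 3, 122 genes were higher, 63 of them among the 216, and the median was 0.89. The count of 130 also moved with other libraries: it was 67, 23 and 52 without water replicates 1, 2 and 3, of which 41, 12 and 30 were among the 216, and 188 without bicarbonate replicate 1, of which 144 were. In oePsbS, where 40 genes were higher (0.221%) and 203 were lower (1.12%), together 1.34%, the median of the raised genes was −0.26, and 9 of them were called lower. In Col-0 and npq4-1 the medians were 0.08 and 0.05. The lowered genes behaved differently. Col-0 had 57 lowered genes (0.313%) and npq4-1 had 40 (0.219%), beside 6 raised genes (0.0329%) in npq4-1. Of the 21, 12 were also called lower in Col-0 (57.1% of the 21 and 21.1% of the 57 lowered there), 8 in oePsbS (38.1% and 3.94%), 8 in npq4-1 (38.1% and 20%) and 5 in the double line (23.8% and 45.5%). In the double line the 5 became 3 without bicarbonate replicate 3. Their median log2 fold change was −0.82 in the double line, −1.27 in oePsbS, −1.74 in Col-0 and −1.48 in npq4-1.

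The difference between the responses of the triple and the double line was tested directly in all 30 libraries. Of 18999 genes, edgeR called 0 higher and 0 lower, and DESeq2 also called 0. At an unadjusted p under 0.05 with the fold, 62 were more raised in the triple line (0.326%) and 79 less (0.416%). The estimates for the leading genes were positive but had wide errors. These genes lead the response of the triple line itself, and picking them there favours a positive sign. The triple response exceeded that of the double line by 1.51 for WRKY40 (standard error 0.97), 1.15 for WRKY33 (standard error 0.44), 1.91 for ZAT10 (standard error 0.84) and 1.46 for CBF2 (standard error 0.64) on the log2 scale, each at an adjusted p of 0.997. The library labelled double bicarbonate replicate 3 lacked the excess of the βCA1 transcript AT3G01500.2, at 536 TPM against 6735 to 10765 TPM in the other 5 double libraries. Without it the difference still held 0 calls in both directions.

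Against oePsbS, the background into which the carbonic anhydrases were brought, the response of the triple line was higher for 515 genes (2.71%) and lower for 77 (0.405%). Among the lists with the largest shares of calls, the other stress regulators and mRNA decay factors gave 11 of 18, the C2H2 genes 4 of 7, the rapid ERF genes 14 of 25, the immunity genes 18 of 35, the sugar and shade genes 9 of 19, the touch and calcium genes 7 of 18 and the WRKY genes 11 of 29, all higher. Lower calls stood in the photoprotection list (2 of 13), the phenylpropanoid and anthocyanin list (2 of 17), the light-harvesting list (1 of 26) and the xyloglucan list (1 of 29, beside 3 higher). WRKY33 rose in the triple line and had a log2 fold change of −0.64 in oePsbS (adjusted p = 0.00714 in its own 6 libraries), a difference of 3.41 (standard error 0.46, adjusted p = 0.000219). MYB51 differed by 2.47 and HB-2, a regulator of shade growth, by 1.36. In part the differences came from falls in oePsbS: PORA, a protochlorophyllide reductase, stood at 35.2, 36.0 and 32.2 CPM with water and at 48.3, 42.6 and 34.4 CPM with bicarbonate in the triple line and was not called, but had a log2 fold change of −1.41 in oePsbS. TT4, chalcone synthase, was among the 77, with −0.55 in the triple line and 0.86 in oePsbS. CBF2 differed by 5.13 and CBF1 by 5.17, while COR15A differed by only −0.14 (standard error 0.34, adjusted p = 0.830), with log2 fold changes of −1.09 and −0.96 in the triple line and oePsbS. The count of 515 was 313 without triple water replicate 2 and 329 without triple bicarbonate replicate 2. The count of 77 was 45 without triple bicarbonate replicate 2, 50 without oePsbS bicarbonate replicate 2, and 122 to 129 without oePsbS water replicate 1, triple water replicate 1 or triple bicarbonate replicate 3.

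Against Col-0 the triple response was higher for 108 genes (0.568%) and lower for 1 (0.00526%). The lower count was 0 with the replicate block and 0 in the fit of the 12 libraries of this comparison. With the p left unadjusted, 2.11% of genes were higher and 0.421% lower. This comparison shares the 6 triple libraries with the preceding ones. SZF1 differed by 3.12, AP2C1 by 3.45 and UCP5 by 2.69 (standard errors 0.51, 0.57 and 0.44, all at adjusted p = 0.0064 from edgeR), and WRKY40 by 4.77 (standard error 1.12, adjusted p = 0.0372). COR15A had a difference of −0.00 (standard error 0.34) and DFR of 0.02 (standard error 0.52), so the intervals for these lowered genes included changes of either sign. The count of 108 fell to 22 without triple water replicate 2 and rose to 191 without triple bicarbonate replicate 1. It was 30 to 70 without triple water replicate 3, triple bicarbonate replicate 2 or 3, Col-0 water replicate 2 or 3, or Col-0 bicarbonate replicate 2 or 3.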

How the data were processed

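RNA was sequenced from rosettes of 5 genotypes given water or bicarbonate, with 3 libraries a group. The authors mapped stranded mRNA reads with Salmon (version not given in the sources used here) to Ensembl release 41 cDNAs of TAIR10, and deposited estimated counts and TPM for 48268 transcripts of 27588 genes. The TPM values that the authors deposited were used for transcripts and for 1 alternative.

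The estimated counts were summed per gene, rounded to whole numbers, and tested with edgeR 4.0.16 (R 4.3.3) by quasi-likelihood with TMM scaling, after filterByExpr (minimum count 10, total 15), with Benjamini-Hochberg adjustment over all genes tested. The response used the 6 triple libraries (18149 genes, common biological coefficient of variation 0.118), and differences of responses used all 30 libraries (18999 genes). Totals were 15346368 to 18326430 reads a library, so genes near 1 CPM rest on few reads. No 2 of the 30 libraries were identical. CPM were scaled over all 30 libraries, and standard errors were the log2 fold change divided by the root of its F statistic. The code was tested on simulated data. Alternatives were DESeq2 1.42.0, limma 3.58.1 on log2(TPM + 1), RLE scaling, no low-count filter, length-scaled TPM, no organelle genes, a replicate block, a fit of all 30 libraries, a fit of the 12 libraries of each difference, the adjusted p alone, and leaving out each library.

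The 31 gene lists (504 of 522 names kept, 18 with no matching symbol left out, of which 5 were called genes) and the comparison were chosen with earlier results of these data known. Named genes were the construct loci, genes the study names, the 15 called genes a direction with the smallest adjusted p, up to 4 called members a list (or the member with the smallest p), and up to 5 a direction for each difference. Other list members were named after their values were seen. Symbols, exons and promoter sequences came from RefSeq TAIR10.1, where 99.6% of transcripts had the length of a RefSeq mRNA of their locus.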

Additional observations from a re-analysis of the deposited data

Results flagged for a closer look

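Several results were set apart because the response of the triple line differed from that of another genotype by a test of the difference itself, with edgeR in all 30 libraries. Against oePsbS these were the 515 genes with a higher and the 77 with a lower response. The named genes on the higher side differed by 1.52 (AT2G15960), 2.47 (MYB51), 1.36 (HB-2), 1.70 (PORA) and 3.41 (WRKY33) on the log2 scale, each at adjusted p = 0.000219. Of these, only MYB51 and WRKY33 were called in the triple line itself, while AT2G15960, HB-2 and PORA had log2 fold changes of 0.23, 0.55 and 0.29 there and of −1.29, −0.81 and −1.41 in oePsbS. On the lower side the differences were −2.50 for BGLU47, −1.12 for AT1G51440, −1.44 for CSLB03, −1.11 for AT1G73600 and −1.41 for TT4, with adjusted p from 0.000333 to 0.00135. In all 5 the response of oePsbS was positive, from 0.53 to 1.52, and none was called in the triple line.

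Against Col-0 these were the 108 genes with a higher and the 1 with a lower response. The named genes differed by 1.02 (MYB96), 3.12 (SZF1), 2.69 (UCP5), 1.2 (AT5G13200) and 3.45 (AP2C1), each at adjusted p = 0.0064. The single gene with a lower response was AT5G61950, at −1.05 (standard error 0.24, adjusted p = 0.0359). That call was lost in 11 of 17 alternative fits, the replicate block and the fit of its 12 libraries among them. Its log2 fold change was −0.53 in the triple line and 0.51 in Col-0. Both comparisons use the same 6 triple libraries.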

How the results depend on the processing

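In the triple line 216 genes higher and 21 lower became 217 and 29 with a replicate block, 214 and 21 with RLE scaling and 260 and 30 with DESeq2 (212 and 21 shared). The lower genes numbered 61 by the adjusted p alone, 9 in the fit of all 30 libraries and 10 with limma on log2(TPM + 1). Leaving out 1 library gave 119 to 274 higher and 6 to 24 lower. Of 70 called named genes, all kept their call under RLE scaling, no filter, length-scaled TPM, organelle genes left out and the block; 11 lost it in the fit of all 30 libraries, 10 with limma, 1 with DESeq2 and 4 to 16 when a library was left out. None reversed. Samples of the same number had deviations correlated at 0.13, −0.13 and 0.19, and samples of unlike number at −0.24 to 0.13. With 3 libraries a group these values cannot decide whether the numbers pair the samples. The difference from the double line was 0 under every alternative run. That from oePsbS ranged from 313 to 626 higher and 45 to 129 lower without 1 library, and was 513 and 84 with the block. That from Col-0 was 97 higher and 0 lower with the block, 48 and 0 with its 12 libraries only and 170 higher with DESeq2. Without 1 library it ranged from 22 to 191 higher and 0 to 2 lower. The cause of these shifts was not tested. Counts of list members without 1 library, list counts by DESeq2 or with members matched by locus, and the double response without 1 library, were chosen after seeing the data. At this depth genes under 1 CPM with water carry few reads, so their fold changes are imprecise.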
